A study of Mus musculus with 12 samples.

Results

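The miR-465, miR-743 and miR-880 cluster is a set of mouse microRNAs (miRNAs) encoded close together on the X chromosome. Its members were taken from the deposited table by name, as every row named miR-201, miR-463, miR-465, miR-470, miR-471, miR-547, miR-741, miR-742, miR-743, miR-871, miR-878, miR-880, miR-881 or miR-883, with any letter and either arm. The rule used no measured value, and it found 36 of the 1042 rows, which belong to 18 precursor names. Small RNA sequencing had been run on 12 libraries from 5 mouse cell types: mouse embryonic fibroblasts (MEFs, n = 3), embryonic stem cells (ESCs, n = 3), induced pluripotent stem cells (iPSCs, n = 2), nuclear transfer ESCs (NT-ESCs, n = 2) and nuclear transfer iPSCs (NT-iPSCs, n = 2). The ESCs were the E14 line, from 129/ola mice. The MEFs came from C57B6/129SvJae F1 embryos, and all 3 reprogrammed types were made from such MEFs: iPSCs with doxycycline-inducible lentiviral c-Myc, Klf4, Oct4 and Sox2, NT-ESCs by placing a MEF nucleus in an enucleated oocyte, and NT-iPSCs by placing an iPSC nucleus in one. All 4 pluripotent types had been grown in medium with leukaemia inhibitory factor (LIF) on irradiated MEF feeder cells. Each type was represented by RNA batches from a single line, so the spread between libraries may be technical, and strain, line and cell type cannot be told apart in any comparison with ESCs. Among the 3 reprogrammed types, line and way of reprogramming cannot be told apart either.

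As background, miRNAs are cut from hairpin precursors and guide silencing proteins to messenger RNAs, which they recognise mainly through the seed, bases 2 to 8 from the 5′ end. Each hairpin can give a miRNA from its 5′ side (5p) and another from its 3′ side (3p), and usually 1 of them accumulates more. The cluster lies between Slitrk2, which encodes a neuronal transmembrane protein, and Fmr1, the gene of the fragile X protein. It is a fast-evolving group related to the human miR-506 family and is best known for its expression in the testis and male germ cells.

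All 36 members were matched to RefSeq mature miRNAs of build GRCm38.p6, from 20 hairpins that all lie on the minus strand of the X chromosome. In this build, 18 hairpins fell within 62.4 kb, at chrX:66776757-66839125, with the nearest gene end, that of Slitrk2, 115 kb away. The other 2, mir-201 and mir-547, lay within 356 bp at chrX:67988096-67988451, with Fmr1 690 kb further along. No hairpin overlapped an exon or intron of another gene in the GENCODE M21 annotation. The 36 members carried 29 distinct seeds. Sequences are given for the members that share a seed and for others that the results below turn on, with the seed in capitals.
miR-465a-3p, miR-465b-3p and miR-465c-3p: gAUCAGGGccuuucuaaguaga
miR-465a-5p: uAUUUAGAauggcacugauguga
miR-465b-5p: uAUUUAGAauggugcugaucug
miR-465c-5p: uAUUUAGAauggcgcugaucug
miR-743a-3p: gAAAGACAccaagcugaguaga
miR-743b-3p: gAAAGACAucaugcugaauaga
miR-743a-5p: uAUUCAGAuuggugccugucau
miR-871-5p: uAUUCAGAuuagugccagucaug
miR-883a-3p: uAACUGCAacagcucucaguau
miR-883b-3p: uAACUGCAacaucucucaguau
miR-871-3p: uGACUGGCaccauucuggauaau
miR-741-3p: uGAGAGAUgccauucuauguaga
miR-741-5p: uACGUAGAuugguaccuaucaug
miR-878-5p: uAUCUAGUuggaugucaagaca
miR-881-3p: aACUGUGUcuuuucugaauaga
miR-463-3p: uGAUAGACaccauauaagguag
miR-470-5p: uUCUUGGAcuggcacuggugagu

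The 3p miRNAs of miR-465a, miR-465b and miR-465c are 1 sequence, listed by RefSeq at 4 hairpins within chrX:66825955-66839125, so their reads cannot be told apart. The rows of miR-465a-3p and miR-465b-3p were identical in every library, and that of miR-465c-3p differed from them by 14 reads at most. The 5p miRNAs of the same hairpins share a seed but differ further along. Counted from 1 at the 5′ end, miR-465b-5p and miR-465c-5p differ by U13C alone, and miR-465a-5p differs from miR-465c-5p by A14G and G20C and by its length. Their counts therefore remain uncertain wherever a read carried a sequencing error at these bases. The miR-743a-3p and miR-743b-3p pair shares a seed and differs by C9U, A12U and G18A, and their hairpins are 437 bp apart, at chrX:66776757-66776818 and chrX:66777256-66777332. The miR-883a-3p and miR-883b-3p pair differs by G12U. The only other shared seed, AUUCAGA, joins miR-743a-5p and miR-871-5p.

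The deposited values were log2-scale variance-stabilised values (VST), from which whole reads could be recovered. The libraries held 4863365 to 8608689 miRNA reads. Size factors ranged from 1.14 to 1.44 among the 6 reprogrammed libraries and from 0.762 to 0.999 among those of MEFs and ESCs, so these sets differed in scaling as well as in cell type. Levels are given below as normalized reads, which are reads divided by the size factor, and differences as VST. The labelled types were checked against marker miRNAs. The 22 rows of the miR-290 to miR-295 and miR-302 and miR-367 clusters, which mark pluripotent cells, took 10.1% to 12.1% of the reads of ESCs, 13.5% to 20.7% of those of reprogrammed cells and at most 0.00129% of those of MEFs, where 11 of them were at 0. Of these rows, miR-302b-5p and miR-367-5p were at 0 in ESCs. The 8 fibroblast miRNAs (among them miR-199a, miR-143 and miR-206) took 16.9% to 21.5% in MEFs, 4.29% to 4.70% in ESCs, 2.40% to 2.62% in iPSCs, 6.25% to 6.38% in NT-ESCs and 6.30% to 7.38% in NT-iPSCs, with none at 0. Within the list, miR-199a-3p was at 18.3 to 19.01 VST in MEFs, 15.0 to 15.3 in ESCs, 17.4 to 17.5 in iPSCs, 19.3 to 19.4 in NT-ESCs and 19.5 to 19.8 in NT-iPSCs. This fibroblast marker, like the nearly identical row of miR-199b-3p, was thus higher in both nuclear transfer types than in the fibroblasts.

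The cluster was close to silent in MEFs. Of the 36 members, 18 had no read in any MEF library, 31 had at most 3 reads in each, and the highest value was 7 reads, for miR-741-3p in MEF 13. In these libraries a count of 0 still allows up to 0.348 to 0.381 CPM, the reads of a miRNA scaled to a common library total. Counting each mature sequence once, the members summed to 3.60, 2.92 and 2.73 CPM in MEFs. In ESCs they summed to 3462, 2917 and 2645 CPM, which was 975 times the MEF mean. With the 10 most abundant miRNAs left out of the library total, the means were 6329 CPM in ESCs and 10.04 CPM in MEFs. The reprogrammed libraries lay between these, with 560 and 351.3 CPM in iPSCs, 129 and 151.997 CPM in NT-ESCs, and 320 and 390 CPM in NT-iPSCs. The order of the means was thus ESCs (3008 ± 416 CPM, SD, n = 3), iPSCs (456 ± 148, n = 2), NT-iPSCs (355 ± 50.03, n = 2), NT-ESCs (140 ± 16.4, n = 2) and MEFs (3.09 ± 0.457, n = 3). Only the iPSC and NT-iPSC libraries overlapped in this order, and their order depended on the scaling: with size factors, 21 of the 27 members tested below had a higher mean VST in NT-iPSCs. In such bulk samples, fewer cells with the cluster and less of it per cell cannot be told apart.

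**Figure D1:**
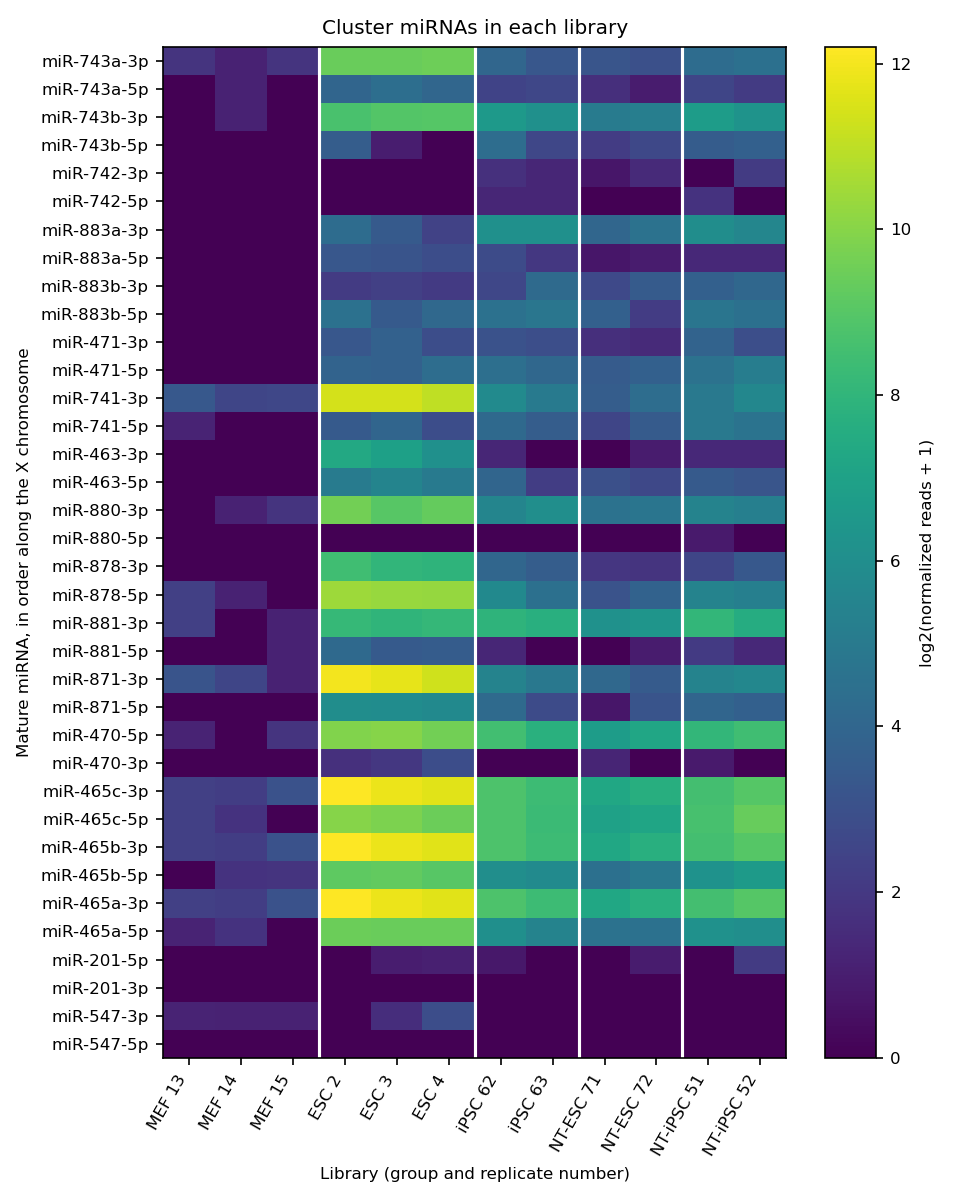
Level of each of the 36 members (rows, in their order along the X chromosome) in each of the 12 libraries (columns), as log2(normalized reads + 1). The 3 MEF columns stay near 0, the 3 ESC columns hold the highest values, and miR-465a-3p and miR-465b-3p have identical rows.

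Members differed widely in level, and 9 of the 36 stayed under the minimum for testing, which was 10 reads in at least 2 libraries. These were both arms of miR-201, miR-547 and miR-742, miR-470-3p, miR-880-5p and miR-883a-5p, whose highest counts were 0 to 8 reads. Both hairpins of the small second block, mir-201 and mir-547, were among them. miR-201-3p and miR-547-5p had no read in any library. The remaining 27 members were tested, 3 of which reached the minimum only through ESCs (miR-463-3p, miR-743a-5p and miR-881-5p) and 4 only through reprogrammed cells (miR-471-3p, miR-741-5p, miR-743b-5p and miR-883b-3p). None reached it through MEFs. Only 6 members had reads in all 12 libraries.

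The first comparison asked which members separate ESCs from the fibroblasts. All 27 tested members were higher in ESCs (limma, adjusted p = 7.97e-11 to 0.0474), beside 39.9% of all 732 tested miRNAs called higher and 79% called in either direction. Since no member had passed the read minimum in MEFs, this count had to lean one way and is a description. The median difference was 8.32 VST, against 0 over all tested miRNAs. The 56 other tested X chromosome miRNAs had 15 called higher and 32 called lower, with a median of -1.21.

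The sequence shared by miR-465a-3p, miR-465b-3p and miR-465c-3p was the most abundant of the cluster. The miR-465a-3p row, like that of miR-465b-3p, had 3, 3 and 6 reads in MEFs and 4703, 3688 and 3233 normalized reads in ESCs, and miR-465c-3p had 3, 3 and 6 reads in MEFs and 4688, 3679 and 3218 normalized reads in ESCs. The first was 9.45 ± 0.27 VST higher in ESCs (SE, adjusted p = 7.97e-11), or 767-fold on the means. miR-878-3p, at 0 in MEFs, had 346, 260 and 246 normalized reads in ESCs and was at least 74.9-fold higher there, with the MEF libraries set at 3 reads each. The weakest difference was that of miR-743b-5p, with 10, 1 and 0 reads in ESCs against 0 in MEFs. Its groups overlapped, and its call was lost on a plain log2 scale (adjusted p = 0.0744) and without any 1 of 11 of the 12 libraries, ESC 2 most (adjusted p = 0.200), with ESC 4 the exception.

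The second comparison asked how far reprogrammed cells held the ESC level of these miRNAs. Most members were far below it, led by miR-871-3p, miR-463-3p, miR-741-3p and miR-743a-3p, while miR-883a-3p, miR-883b-3p and miR-743b-5p were above it. Of the 27 tested members, 22 differed from ESCs in the mean over iPSCs, NT-ESCs and NT-iPSCs, a share of 81.5% that is close to the 82% of all tested miRNAs. Their direction was uneven: 19 were lower, or 70.4% of the members tested beside 38% of all miRNAs, and 3 were higher, or 11.1% beside 44%. These counts describe the members that passed the read minimum, 3 of which had passed it through ESCs alone, all called lower, and 4 through reprogrammed cells alone, 2 of them called higher. Of the other 20, 16 were lower and 1, miR-883a-3p, was higher. For 20 of the 27, no reprogrammed library overlapped an ESC library, beside 71% of all miRNAs. The median difference was -2.90 VST for the members, -0.25 for the other X chromosome miRNAs and 0.24 for all tested miRNAs. Another scaling of the libraries moved the median of all miRNAs by 0.22 (upper quartile) or -0.16 (TMM-type) in this contrast, and the 19 members called lower had differences of -1.52 to -6.85 VST. The fibroblast miRNAs did not move together in this contrast: miR-199a-3p and miR-199b-3p were above the ESC range in every reprogrammed library, while miR-143-3p, miR-214-3p and miR-10b-5p were below it. Their part in the result was not tested.

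On the VST scale, miR-871-3p had the most negative difference, although miR-463-3p, a scarcer member, had a larger fold. It had 4098, 3485 and 2529 normalized reads in ESCs, 43.3 and 28.6 in iPSCs, 16.6 and 10.5 in NT-ESCs, and 43.3 and 48.8 in NT-iPSCs. No reprogrammed library came near an ESC library, and the difference was -6.85 ± 0.41 VST (SE, adjusted p = 2.26e-08), or 105.8-fold on the means. miR-741-3p had 2706, 2687 and 2087 normalized reads in ESCs, against 56.5 and 30.8 in iPSCs, 11.1 and 19.2 in NT-ESCs, and 29.4 and 49.7 in NT-iPSCs. It was 76.0-fold lower (-6.40 ± 0.30 VST, adjusted p = 2.62e-09). miR-878-5p, from a hairpin at chrX:66801508-66801585, followed the same pattern, with 1351, 1258 and 1230 normalized reads in ESCs and 7.62 to 53.6 in the reprogrammed libraries (-5.69 ± 0.64 VST, adjusted p = 6.45e-06). Its 3p partner had 2.62 to 15.4 normalized reads in the reprogrammed libraries and fell by 5.34 ± 0.29 VST (adjusted p = 9.64e-09).

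Within 1 of the pairs that share a seed, both members fell, with different values. miR-743a-3p had 687, 673 and 718 normalized reads in ESCs, 15.4 and 8.79 in iPSCs, 8.31 and 6.998 in NT-ESCs, and 18.8 and 21.5 in NT-iPSCs (-5.75 ± 0.26 VST, adjusted p = 2.40e-09). miR-743b-3p, its seed partner from the neighbouring hairpin, had 419, 482 and 500 in ESCs, but 96.2 and 68.9 in iPSCs, 33.2 and 36.7 in NT-ESCs, and 106.3 and 75.3 in NT-iPSCs (-2.86 ± 0.47 VST, adjusted p = 0.000152). The value of miR-743a-3p minus that of miR-743b-3p was thus 0.48 to 0.71 VST in the ESC libraries and -2.88 to -1.78 VST in the 6 reprogrammed libraries, with the order of the pair turned in every one.

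Among the 5p miRNAs of miR-465, miR-465c-5p was above both others in every pluripotent library, by more in the reprogrammed ones. miR-465c-5p had 1009, 893 and 694 normalized reads in ESCs, 449 and 313 in iPSCs, 127 and 143.45 in NT-ESCs, and 402 and 662 in NT-iPSCs. It was only 2.48-fold lower in reprogrammed cells (-1.52 ± 0.64 VST, adjusted p = 0.0462), and this call was lost without any of the 9 pluripotent libraries (adjusted p = 0.0575 to 0.122). By contrast, miR-465a-5p went from 681 to 699 normalized reads in ESCs to 22.7 to 71.1 in the reprogrammed libraries (-3.96 ± 0.54 VST, adjusted p = 3.40e-05). miR-465b-5p went from 527 to 612 in ESCs to 21.5 to 98.5 (-3.48 ± 0.59 VST, adjusted p = 0.000195). The value of miR-465a-5p minus that of miR-465c-5p was -0.53 to -0.01 VST across ESC libraries and -3.36 to -2.40 VST across reprogrammed ones. The shared 3p sequence, by its miR-465a-3p row, fell by 3.63 ± 0.24 VST (adjusted p = 5.34e-08), between the falls of miR-465b-5p and miR-465a-5p. That row had 449 and 332 normalized reads in iPSCs, 155 and 204 in NT-ESCs, and 372 and 500.8 in NT-iPSCs. The comparisons within seed groups, and miR-743b-3p, miR-465a-5p and miR-465b-5p as examples, were chosen after their values were seen. The comparisons between members carry no test, and the adjusted p values belong to each member's own difference from ESCs.

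A few abundant members came much closer to the ESC level. miR-881-3p, from a hairpin 358 bp from that of miR-878, had 289, 252 and 281 normalized reads in ESCs, 242 and 204 in iPSCs, 72.04 and 81.3 in NT-ESCs, and 269.8 and 189.6 in NT-iPSCs. The groups overlapped, and the difference of -0.80 ± 0.60 VST did not pass the test (adjusted p = 0.236). Its neighbour miR-878-5p, minus miR-881-3p, stood at 2.13 to 2.32 VST across ESC libraries and at -3.18 to -2.16 VST across reprogrammed ones, a pair also chosen after its values were seen. miR-470-5p fell by 2.04 ± 0.55 VST (adjusted p = 0.00512), from 945, 1016 and 775.5 normalized reads in ESCs to 368 and 210.2 in iPSCs, 105.98 and 148 in NT-ESCs, and 265 and 355 in NT-iPSCs. miR-880-3p fell more, from 770.2, 529.5 and 629 in ESCs to 46.3 and 65.2 in iPSCs, 23.55 and 25.4 in NT-ESCs, and 43.3 and 37.3 in NT-iPSCs (-4.05 ± 0.55 VST, adjusted p = 3.11e-05).

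The make-up of the cluster therefore differed between ESCs and reprogrammed cells, a measure that does not depend on the scaling of libraries. Shares, like the arm balance below, can still carry other differences between the library sets. In the paper's sequencing summary, every reprogrammed library had a larger share of 5′ adaptor contaminants than any MEF or ESC library. The part of such differences in the result was not tested. miR-871-3p gave 17.6% to 21.6% of the members' reads in ESC libraries and 1.27% to 2.46% in reprogrammed ones. miR-741-3p gave 14.3% to 15.9% and then 1.502% to 2.60%. Shares moved the other way for miR-465c-5p, from 4.82% to 5.32% up to 17.3% to 28.2%, for miR-470-5p, from 4.98% to 6.03% up to 13.4% to 17.8%, and for miR-881-3p, from 1.497% to 1.95% up to 8.08% to 13.8%. The share of the miR-465 3p sequence ran from 21.9% to 24.8% among ESC libraries and from 18.98% to 24.6% among reprogrammed ones, so these ranges overlapped.

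**Figure D2:**
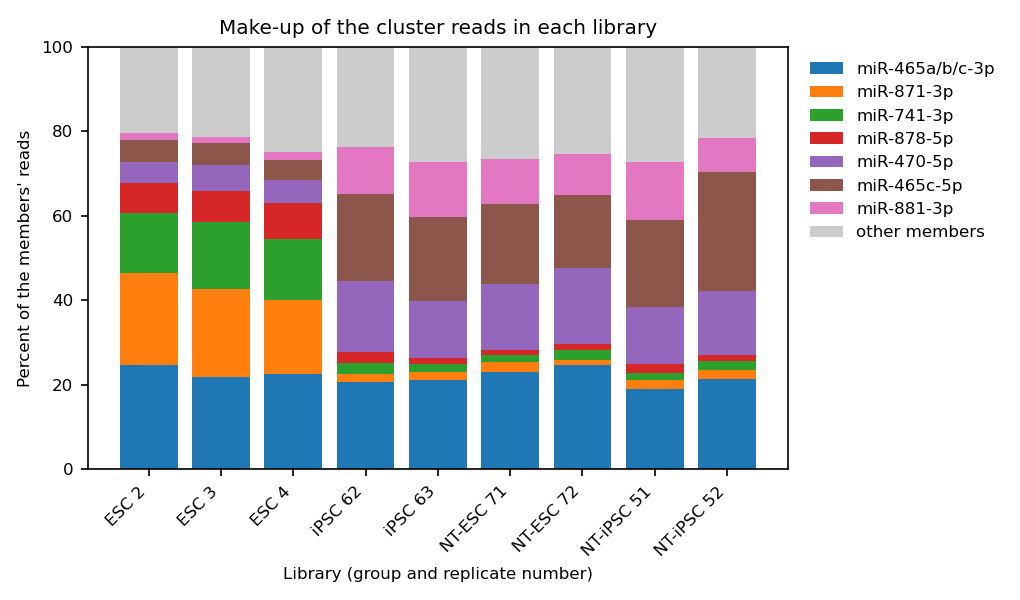
Percent of the members' reads (y axis) given by each of 7 sequences and by the remaining members in each of the 9 pluripotent libraries (x axis), with the miR-465 3p sequence counted once. The miR-871-3p and miR-741-3p bands are wide in the ESC libraries and thin in the 6 reprogrammed ones, where miR-465c-5p, miR-470-5p and miR-881-3p are wider.

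The 3 members above the ESC level were of low abundance. miR-883a-3p had 19.2, 10.0 and 4.33 normalized reads in ESCs, 68.3 and 69.6 in iPSCs, 15.2 and 23.62 in NT-ESCs, and 62.96 and 47.2 in NT-iPSCs. It was 4.28-fold higher in reprogrammed cells (2.05 ± 0.40 VST, adjusted p = 0.000548), although 1 NT-ESC library lay within the ESC range. miR-883b-3p, which has the same seed, had 3, 4 and 3 reads in ESCs and 7 to 24 reads in the reprogrammed libraries. It had reached the read minimum only through reprogrammed cells, so its difference of 1.36 ± 0.42 VST is a description. miR-743b-5p had 11.3, 1.001 and 0 normalized reads in ESCs and 3.46 to 19.8 in the reprogrammed libraries, with overlap. Its difference of 2.20 ± 0.89 VST is likewise a description, since it too had reached the minimum only through reprogrammed cells, and 7 of the 12 libraries cost it its call when left out, ESC 4 most (adjusted p = 0.241).

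The remaining members called lower were all of low or middling abundance. miR-463-3p had 161, 122 and 68.2 normalized reads in ESCs and at most 2 reads in any reprogrammed library, a 125-fold difference with a 95% counting interval of 60.6 to 310 (-6.63 ± 0.63 VST), which is a description since this member reached the read minimum only through ESCs. miR-463-5p, miR-743a-5p, miR-871-5p and miR-881-5p fell by 2.16 to 3.40 VST, of which miR-743a-5p and miR-881-5p had also reached the minimum through ESCs alone. The 5 members that did not pass the test were miR-881-3p and 4 scarce ones, miR-471-3p, miR-471-5p, miR-741-5p and miR-883b-5p, with differences of -0.80 to 0.44 VST. Along the chromosome, these 4 and the 3 higher members all came from the hairpins in places 2 to 7 of 20, from mir-743b to mir-741, which also held miR-743b-3p and miR-741-3p among the members that fell. miR-881-3p came from place 11, outside this stretch, and the grouping was made after the values were seen.

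**Figure D3:**
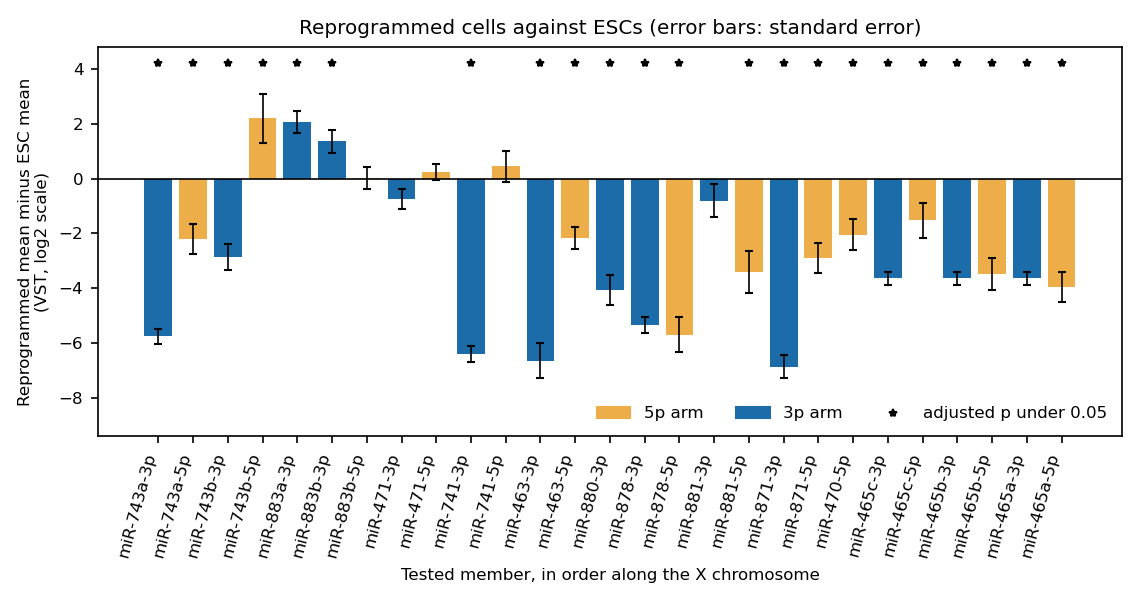
Difference of the reprogrammed mean from ESCs (y axis, VST on a log2 scale, with standard errors) for the 27 tested members in their order along the X chromosome (x axis), coloured by arm, with a star for an adjusted p under 0.05. The 19 starred bars below 0 reach down to -6.85 at miR-871-3p, and the 3 starred bars above 0 are miR-743b-5p, miR-883a-3p and miR-883b-3p.

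Each reprogrammed type was also set against the same 3 ESC libraries, which these comparisons share. In iPSCs 17 members were lower and 2 higher (all miRNAs, 36.1% lower and 39.8% higher, 75.8% in all), and the median difference was -2.51 VST. In NT-ESCs 20 were lower and none higher (again 36.1%, 39.8% and 75.8%), with a median of -4.17, while 2 were higher under upper quartile scaling or without ESC 2. In NT-iPSCs 16 were lower and 2 higher (36.5%, 41.1% and 77.6%), with a median of -2.11, and a plain log2 scale gave 18 lower and 5 higher. The lower counts include members that had reached the read minimum only through ESCs, whose calls are a description. These were miR-463-3p in all 3 types, miR-881-5p in iPSCs and NT-ESCs, and miR-743a-5p in NT-ESCs and NT-iPSCs. The higher members were miR-883a-3p and miR-883b-3p in both iPSCs (2.77 and 1.30 VST) and NT-iPSCs (2.44 and 1.80 VST). miR-883b-3p again had passed the minimum only through reprogrammed cells, and in iPSCs its call was lost without any 1 of 9 libraries, and without iPSC 63 its difference was 0.47 VST (adjusted p = 0.462). Taking iPSCs, NT-ESCs and NT-iPSCs in turn, the difference for miR-741-3p was -5.87, -7.34 and -5.99 VST, and for miR-743a-3p it was -5.81, -6.38 and -5.06. In all 3 types 15 of the 27 members were called lower, beside 30.3% of all tested miRNAs, none was called higher in all 3, beside 32.1%, none was called in opposite directions, and 5 were called in none.

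Reprogrammed cells were nonetheless well above MEFs. Against MEFs, 26 of the 27 tested members were higher (48.5% of all miRNAs called higher and 88.9% in either direction). The median difference was 4.92 VST. Since no member had passed the read minimum in MEFs, this count again had to lean one way and is a description. The miR-465a-3p row was 66.4-fold higher than in MEFs (5.82 ± 0.24 VST, adjusted p = 4.98e-10). miR-741-3p and miR-871-3p, both far below ESCs, were 5.15-fold and 6.82-fold above MEFs. The member that did not pass was miR-881-5p, with at most 4 reads in a reprogrammed library (1.005 ± 0.77 VST, adjusted p = 0.234). The weakest call, that of miR-463-3p, rested on at most 2 reads in a reprogrammed library against 0 in MEFs. That call was lost on a plain log2 scale (adjusted p = 0.0553) and without any of the MEF libraries (adjusted p = 0.0535 to 0.0566).

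The balance between the arms of a hairpin, taken as the 5p minus the 3p value within a library, shifted for some precursors. Of the 18 precursor names, 6 had a mean of at least 10 reads on both arms in ESCs and in reprogrammed cells, and 3 of these changed, beside 81.8% of the 165 pairs tested in the whole table. All 3 shifted towards the 5p arm, as did 36.4% of all pairs. For miR-741 the balance was -8.19 to -7.42 VST among ESC libraries, where the 3p arm prevailed, and -1.70 to 0 VST among reprogrammed ones, a change of 6.84 ± 0.40 VST (adjusted p = 1.04e-08) that ranked 9 of 165 by size. Its 5p arm had 10.1, 15.0 and 6.50 normalized reads in ESCs and 4.85 to 29.4 in the reprogrammed libraries (0.44 ± 0.57 VST, adjusted p = 0.481), so the shift went with the fall of miR-741-3p. Its ESC mean on that arm was at the minimum, and the pair was no longer tested without ESC 3, which left 1 called pair. For miR-871 the change was 3.96 ± 0.65 VST (adjusted p = 0.000125), from -6.005 to -5.53 VST among ESC libraries to -3.74 to -0.39 VST among reprogrammed ones.

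For miR-465c the change was 2.10 ± 0.77 VST (adjusted p = 0.0248), a call lost without any of the ESC libraries (adjusted p = 0.0543 to 0.0694). The balance lay between -0.50 and 0.40 VST in every reprogrammed library and between -2.21 and -2.04 VST in every ESC library. Since its 3p sequence is common to miR-465a, miR-465b and miR-465c, this balance compares 1 5p miRNA with the 3p products of the whole family. The same holds for the balances of miR-465a and miR-465b. The arms of miR-465a, miR-465b and miR-878 changed by -0.34, 0.15 and -0.35 VST and did not pass the test (adjusted p = 0.630 to 0.808).

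**Figure D4:**
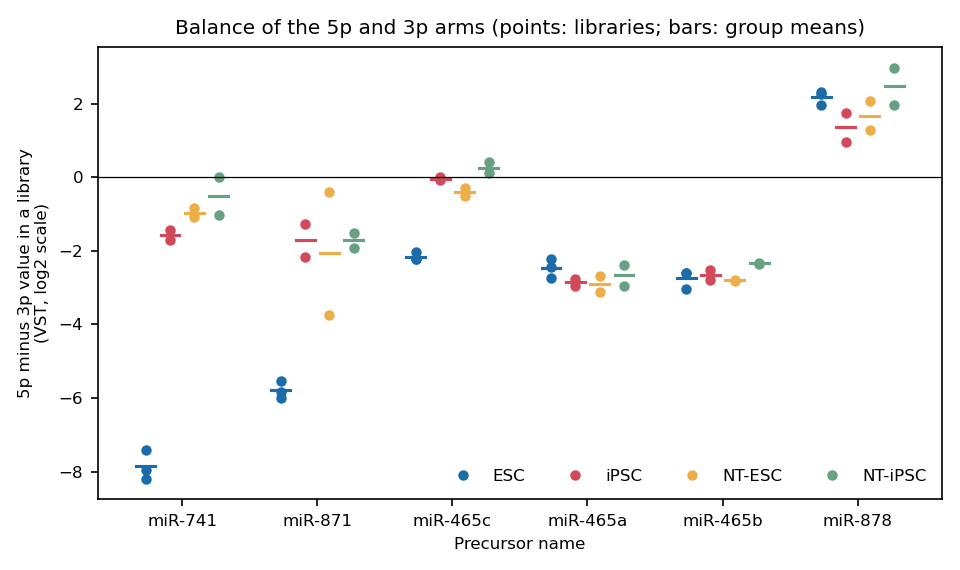
The 5p minus the 3p value (y axis, VST on a log2 scale) for the 6 tested precursors (x axis) in each pluripotent library, with points for libraries, colours for cell types and short lines for group means. For miR-741, miR-871 and miR-465c the 3 ESC points lie below every reprogrammed point, while for miR-465a, miR-465b and miR-878 the ESC and reprogrammed points lie within about the same range.

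The third set of comparisons asked whether the reprogrammed types differed from each other. Each type was a single line, so line and way of reprogramming cannot be told apart here. NT-ESCs held the least of the cluster. Against iPSCs, all 27 tested members had a negative difference (-0.25 to -2.03 VST, median -1.17, against -0.10 over all tested miRNAs), and 8 of them were called lower, or 29.6% beside 13.1% of all miRNAs called lower and 25.7% in either direction. Of the 8, 3 were rows of the single miR-465 3p sequence, so this share too counts 1 sequence 3 times. Some other settings called more of the members, as listed at the end. miR-878-3p had the smallest p, with 15.4 and 11.0 normalized reads in iPSCs and 2.77 and 2.62 in NT-ESCs (-2.03 ± 0.41 VST, adjusted p = 0.00448). miR-741-3p was 2.88-fold lower (-1.47 ± 0.42 VST, adjusted p = 0.0260), and miR-465c-3p 2.18-fold lower (-1.12 ± 0.34 VST, adjusted p = 0.0323), as were its sequence partners miR-465a-3p and miR-465b-3p. The others called were miR-883a-3p, miR-883b-5p and miR-471-3p (adjusted p = 0.0357 to 0.0471). The fibroblast miRNAs summed to 2.40% to 2.62% of the reads of iPSCs and 6.25% to 6.38% of those of NT-ESCs, and their part in the result was not tested. Only 2 libraries stood in each group, and the count fell to 1 without iPSC 62, 2 without NT-ESC 71, 3 without NT-ESC 72, and 5 without iPSC 63 or ESC 3.

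Between NT-iPSCs and iPSCs no member was called by limma (26.5% of all miRNAs were), none had an unadjusted p under 0.05, and voom, which models the recovered reads, called 3 lower. The differences ran from -0.89 to 1.81 VST with a median of 0.22, and for the miR-465a-3p row the difference was 0.16 ± 0.34 VST (adjusted p = 0.778). Such values do not show that the levels were equal.

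Against NT-ESCs, NT-iPSCs had a higher mean for every one of the 27 tested members (0.53 to 2.10 VST, median 1.35, against 0.08 over all tested miRNAs). For all 27, neither NT-iPSC library overlapped an NT-ESC library, beside 63.1% of all tested miRNAs. Only 5 passed the test, or 18.5% beside 5.6% of all miRNAs called higher and 12.8% in either direction. Of these, 3 were rows of the single miR-465 3p sequence, so the share counts 1 sequence 3 times. Some other settings called more members, as listed at the end. miR-471-3p had 2.08 and 1.75 normalized reads in NT-ESCs and 13.9 and 6.62 in NT-iPSCs, which is 3 and 2 against 17 and 8 reads (2.01 ± 0.52 VST, adjusted p = 0.0360). The miR-465a-3p row was 2.43-fold higher (1.28 ± 0.34 VST, adjusted p = 0.0360), as were those of miR-465b-3p and miR-465c-3p, and miR-743a-3p was 2.63-fold higher (1.32 ± 0.37 VST, adjusted p = 0.0407). The call of miR-743a-3p was lost under voom (adjusted p = 0.0712) and in limma without a read minimum (adjusted p = 0.0596). The count was 0 without NT-ESC 71 or NT-iPSC 51, 1 without NT-ESC 72, NT-iPSC 52 or ESC 3, 8 without MEF 14, and 9 without MEF 13 or MEF 15. The fibroblast miRNAs summed to nearly the same share in both types (6.25% to 6.38%, then 6.30% to 7.38%), and their part in the result was not tested.

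**Figure D5:**
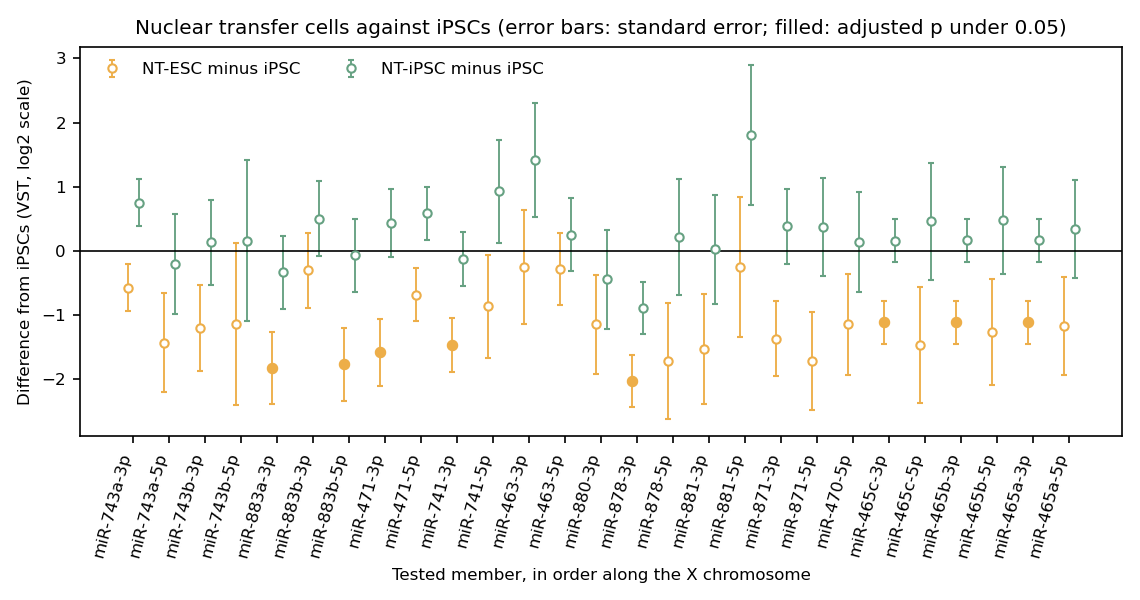
Difference of NT-ESCs and of NT-iPSCs from iPSCs (y axis, VST on a log2 scale, with standard errors) for the 27 tested members in their order along the X chromosome (x axis), with filled points for an adjusted p under 0.05. All 27 NT-ESC points lie below 0, 8 of them filled, while the NT-iPSC points lie between -0.89 and 1.81 with none filled.

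Outside the cluster, the rows that followed the members' mean most closely over the 12 libraries were miR-429-3p (Pearson r = 0.980), miR-200a-5p (0.976), miR-96-5p (0.969), miR-1934-3p (0.967) and miR-183-3p (0.964). All are encoded on other chromosomes, and like the members' mean they were lowest in MEFs and highest in ESCs. These correlations over 12 libraries describe a pattern set largely by the 5 cell types.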

How the data were processed

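Small RNA of 18 to 30 nt had been sequenced on the Solexa platform. The authors deposited 1 table of 1042 miRNAs by 12 libraries on a log2 scale, the output of the variance stabilizing transformation of DESeq; the submitters' processing notes name genome build mm8. No column of another sample was found (0 columns). The transformation was inverted for each library, and 100% of 9458 nonzero values came out as whole reads (within 0.05 reads), which gave total reads and size factors. The deposited values of 732 miRNAs, those that reached 10 reads in 2 or more libraries, were compared by limma (version 3.58.1, under R 4.3.3) in 1 model of all 5 cell types, with Benjamini-Hochberg adjustment over all of them at 0.05. A fold is the ratio of mean normalized reads; with 0 reads throughout a group it was set against 3 reads per library and called a lower bound, and counting intervals (95%, exact Poisson) cover counting error only. The scripts were tested on simulated data.

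Mature sequences and coordinates are RefSeq's for GRCm38.p6, a different build from mm8, and were matched by name (804 of 1042 rows). Named were the more abundant arm of the 10 precursors with most reads, the 3 smallest p in each direction of each comparison, calls against the main direction, identical rows and called arm pairs. Replicate libraries of a type differed by more than sampling noise. Members and lists were chosen with earlier results of these data known. Alternatives were other scalings, transformations, filters and sets of samples, and leaving out each library.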

Additional observations from a re-analysis of the deposited data

Results flagged for a closer look

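Among the reprogrammed types, the change from ESCs differed between cell lines for a few members, by limma's test of the difference itself. From iPSCs to NT-ESCs the VST difference was -2.03 for miR-878-3p, -1.47 for miR-741-3p, -1.82 for miR-883a-3p, -1.77 for miR-883b-5p and -1.58 for miR-471-3p. The rows of the single miR-465 3p sequence gave -1.12 (miR-465c-3p), -1.11 (miR-465a-3p) and -1.11 (miR-465b-3p). From NT-ESCs to NT-iPSCs it was 2.01 for miR-471-3p, 1.32 for miR-743a-3p, 1.28 for miR-465a-3p, 1.28 for miR-465b-3p and 1.27 for miR-465c-3p. In this contrast too, the miR-465 3p rows are 1 sequence. Each type had 2 libraries, and all of these calls but that of miR-878-3p were lost when some single library was left out.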

How the results depend on the processing

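Among the called members and called arm pairs, the only ones repeated under other settings, none reversed its direction. With at least 100 reads required in every library of at least 1 cell type, 15 members were tested, of which 15 were called between ESCs and MEFs, 14 between reprogrammed cells and ESCs, 15 between reprogrammed cells and MEFs and 5 between NT-ESCs and iPSCs; fewer miRNAs enter by construction. Between NT-ESCs and iPSCs, voom gave 19 and a fit of only these groups 16. Between NT-iPSCs and iPSCs, voom gave 3. Between NT-iPSCs and NT-ESCs, TMM-type scaling gave 9, log2(normalized reads + 1) 15, voom 14 and a fit of only these groups 16; the cause was not tested. With 10 reads in 2 libraries as the minimum, 9 arm pairs of 12 were called, 7 towards 5p and 2 towards 3p. Leaving out each library gave 1 to 11 calls between NT-ESCs and iPSCs, 0 to 9 between NT-iPSCs and NT-ESCs and 1 to 3 arm pairs. In the other comparisons it gave 26 to 27 (ESCs and MEFs), 20 to 23 (reprogrammed cells and ESCs), 25 to 26 (reprogrammed cells and MEFs), 15 to 20 (iPSCs and ESCs), 19 to 22 (NT-ESCs and ESCs), 15 to 21 (NT-iPSCs and ESCs) and 0 (NT-iPSCs and iPSCs). Of the calls of single members, 13 were lost over 1089 repeats under other settings and 117 over 1740 repeats without a library. With every row counted, the members' sum was 4399 CPM in ESCs and 207 CPM in NT-ESCs. No paired analysis was possible because the cell types share no replicate numbers.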
